A study of Mus musculus with 43 samples.

Results

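Transcripts of Krüppel-like factors and CCN matricellular proteins were followed through retinas of C57BL/6J mice after laser-induced choroidal neovascularization (CNV), with and without short-chain fatty acids (SCFA). The 8 genes were *Klf2*, *Klf4*, *Klf6*, *Klf9*, *Klf10*, *Klf15*, *Ccn1* (also called *Cyr61*) and *Ccn2* (also called *Ctgf*), out of 54532 genes in the count table. They were taken by symbol, and the genes had been put together because of their SCFA against control values in these libraries. Those values are therefore given as a description without a test. For the 8 genes, tests were kept for comparisons between days, sexes and stretches of the count table, and for correlations within groups. Other genes, in lists of related genes, were tested for SCFA against control. Those lists were also chosen with earlier results of these data known. The day and sex comparisons give CTR and SCFA groups equal weight.

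The mice were 9 weeks old at the laser treatment, and both sexes were used. In the SCFA groups sodium acetate, sodium butyrate and sodium propionate were added to the drinking water from before the laser until sampling, and the control groups (CTR) drank water without them. All groups had received the laser, so no group stands for the uninjured retina. Retinas were taken for bulk RNA-seq 3, 7 or 14 days after the laser (dpl), and each library was a pool of 2 retinas from mice of the same group. The 43 libraries form 12 groups named by sex, day and treatment, such as M3CTR for male controls at 3 dpl, with 3 to 5 libraries each, and SCFA was set against CTR in the 6 strata M3, M7, M14, F3, F7 and F14.

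Krüppel-like factors are zinc-finger transcription factors that bind GC-rich and CACCC elements. *Klf2* and *Klf4* are induced in endothelial cells by laminar flow, *Klf6* and *Klf10* respond to injury and transforming growth factor β, and *Klf9* and *Klf15* are induced by glucocorticoids and follow the daily clock. CCN1 and CCN2 are secreted matricellular proteins that bind integrins and heparan sulphate, and their genes are rapid targets of the serum response factor and of YAP/TAZ with TEAD factors. Both have been studied in retinal vessel growth and in fibrosis.

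Library totals were between 14826957 and 21507527 counts, with a median of 17683615. Values are CPM, the counts of a gene relative to all counts of its library, taken on the scaled library sizes of edgeR. The columns of the count table run through the groups once (first column run, 31 libraries) and then again (second column run, 12 libraries), and mitochondrial mRNAs took 4.71% to 14.8% of the counts in the first run and 2.499% to 4.57% in the second. What separates the runs is not given in the sources used here. The photoreceptor list, with rhodopsin among its 6 genes, summed to between 47264 and 98649 CPM in every library. In F3SCFA replicate 2, 6 lens genes took 14.5% of the counts, against a median of 0.00318% over the libraries, and its sums for the pigment epithelium, mural and fibroblast lists were the highest of all. Y-linked transcripts were at 0 in 21 of 22 female libraries, and F7CTR replicate 2 had 784 counts of 4 such genes (40.7 CPM, against 136 to 307 CPM in males). For F3 and F7, values without these libraries are given where they moved a value or a call.

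The genes are protein-coding and lie on separate chromosomes of GRCm38 in GENCODE M21: *Klf2* at chr8:72319033-72321656, *Klf4* at chr4:55527143-55532466, *Klf6* at chr13:5861482-5870394, *Klf9* at chr19:23141226-23168134, *Klf10* at chr15:38291463-38300706, *Klf15* at chr6:90462576-90475238, *Ccn1* at chr3:145646976-145649981 and *Ccn2* at chr10:24595442-24598683. RefSeq promoters on GRCm38.p6, from 250 bases before to 50 bases after the RefSeq start, were found for 6 of the 8, namely *Klf2*, *Klf4*, *Klf6*, *Klf9*, *Klf15* and *Ccn1*. The sequences before the start are shown for the 3 genes that varied together most closely between libraries of the same group. The capitals mark every match to the 8 motifs searched. For *Klf2* the sequence is chr8:72318812-72319032 on the plus strand, 221 bases that end at base -30 from the RefSeq start, where the GENCODE gene begins, for *Klf4* chr4:55532476-55532725 on the minus strand, and for *Ccn1* chr3:145649986-145650235 on the minus strand.
Klf2: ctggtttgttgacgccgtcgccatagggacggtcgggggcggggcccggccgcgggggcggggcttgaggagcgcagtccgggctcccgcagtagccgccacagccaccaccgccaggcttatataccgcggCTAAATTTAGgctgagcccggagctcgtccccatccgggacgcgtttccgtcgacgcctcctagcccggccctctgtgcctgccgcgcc
Klf4: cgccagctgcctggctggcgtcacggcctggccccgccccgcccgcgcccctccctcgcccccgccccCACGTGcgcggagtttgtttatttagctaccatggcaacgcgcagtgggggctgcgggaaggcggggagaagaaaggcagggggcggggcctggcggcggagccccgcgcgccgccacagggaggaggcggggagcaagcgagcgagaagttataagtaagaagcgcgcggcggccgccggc
Ccn1: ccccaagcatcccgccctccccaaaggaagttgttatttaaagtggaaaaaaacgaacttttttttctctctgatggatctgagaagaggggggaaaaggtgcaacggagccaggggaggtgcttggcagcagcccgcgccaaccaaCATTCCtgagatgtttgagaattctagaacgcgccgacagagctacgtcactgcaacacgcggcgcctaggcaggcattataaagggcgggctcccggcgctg

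These 3 promoters had no motif in common. *Klf2* held a MEF2 motif from base -118 to -109, counted from the RefSeq start, a motif found in 1.86% of the 32851 promoters searched. *Klf4* held the E-box CACGTG from -182 to -177, as did *Klf6* from -43 to -38 and *Klf15* at 3 places, and 7.15% of all promoters held one. *Ccn1* held the TEAD motif GGAATG on the opposite strand from -103 to -98, which 14.7% of all promoters held. None of the 6 promoters held the CArG box (1.63% of all promoters), the CRE TGACGTC (3.21%), the AP-1 site TGACTCA (5.20%), the KLF motif GGGCGTG (8.44%) or the glucocorticoid receptor motif (0.222%). Both strands of all 300 bases were searched, and a match is only a description of these letters.

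All 8 genes passed the filter on low counts. Per kilobase of exon, *Ccn2* had the highest median level over the 43 libraries (11.99 CPM per kb), followed by *Klf9* (10.2), *Klf2* (5.76), *Klf6* (4.52), *Klf15* (3.59), *Ccn1* (2.95), *Klf10* (2.30) and *Klf4* (1.37). Neighbours in this order overlapped in their ranges. *Ccn2* was higher than *Klf9* in only 24 of 43 libraries, and *Ccn1* was higher than *Klf10* in 24. The genes differed in how much libraries varied. From the lowest to the highest library, CPM differed 12.1-fold for *Ccn1* and 9.79-fold for *Klf4*, and 2.51-fold for *Klf6*. Between libraries of the same group, the SD of log2(CPM + 1) was 0.67 for *Ccn1*, and 1.15% of the 18197 genes tested had a larger one. It was 0.56 for *Klf9*, 0.48 for *Klf2* and between 0.23 and 0.44 for the others.

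*Klf2*, *Klf4* and *Ccn1* had lower fitted values with SCFA than in CTR in all 6 strata, which 7.94% of all genes tested also had. The other genes were mixed: *Ccn2* was lower in 5 strata, *Klf15* in 4, *Klf6* and *Klf10* in 3 and *Klf9* in 2. These directions are what the genes were chosen on. In bulk RNA, fewer cells of a type and less RNA per cell cannot be told apart.

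*Ccn1*, the matricellular gene with the widest range, lay furthest below its controls at 14 dpl. In M14, it was 29.4, 20.4 and 10.6 CPM in the 3 CTR libraries and 2.94, 3.72 and 3.74 CPM in the 3 SCFA libraries. The groups did not overlap, and the fitted log2 difference was -2.54 ± 0.54 (SE). In F14 the 3 CTR libraries had 17.7, 3.00 and 27.3 CPM and the 4 SCFA libraries 5.98, 4.2, 4.36 and 2.42 CPM, with a log2 difference of -2.19 ± 0.50 (SE). Here CTR replicate 2 lay among the SCFA libraries, and without CTR replicate 3 the difference was -1.31. In M7, 17.3, 11.01 and 9.42 CPM in CTR stood above 5.95, 6.05, 3.39, 3.28 and 5.53 CPM with SCFA (-1.14 ± 0.47, SE). In F3, 14.3, 11.8 and 18.4 CPM in CTR stood above 9.48, 9.59, 5.57, 4.54 and 6.14 CPM with SCFA (-0.87 ± 0.46, SE), and the difference was -0.98 without F3SCFA replicate 2. Groups overlapped in the remaining strata. In F7 the CTR libraries had 13.4, 21.3 and 2.93 CPM and the SCFA libraries 4.12, 5.96, 4.81 and 3.40 CPM (-1.34 ± 0.49, SE). The highest of these is F7CTR replicate 2, the library with Y-linked counts, and without it the difference was -0.74. In M3 the CTR libraries had 18.2, 7.04, 3.98 and 4.18 CPM and the SCFA libraries 2.82, 3.96 and 5.40 CPM (-0.78 ± 0.52, SE). The first pair of controls belongs to the first column run and the second pair to the second, in which SCFA was not lower (difference of mean log2(CPM + 1) of 0.15, 2 libraries each). Without M3CTR replicate 1 the fitted difference was -0.26, and without M3SCFA replicate 1 it was -0.35.

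**Figure D1:**
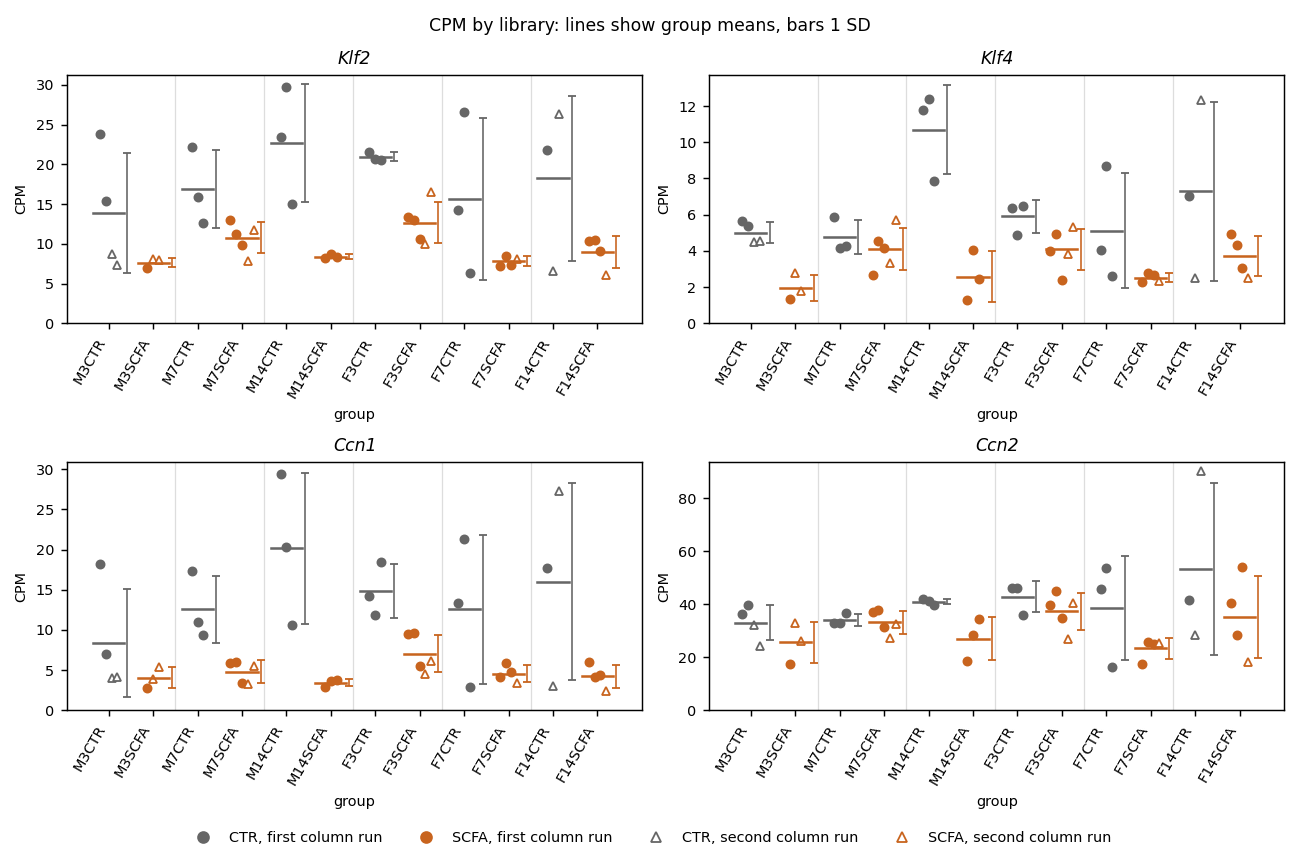
CPM of *Klf2*, *Klf4*, *Ccn1* and *Ccn2* (vertical axes) in each library of the 12 groups (horizontal axes), with group means as lines and 1 SD as bars; filled circles are the first column run and open triangles the second. The SCFA libraries of *Ccn1* sit between 2.42 and 9.59 CPM, while the CTR libraries spread from 2.93 to 29.4 CPM.

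*Klf2*, the flow-responsive factor, had its own pattern of non-overlap. In M14 it was 23.4, 29.7 and 14.98 CPM in CTR and 8.17, 8.71 and 8.31 CPM with SCFA (-1.43 ± 0.37, SE). In F3 it was 21.6, 20.7 and 20.6 CPM in CTR and 13.4, 12.9, 10.6, 9.95 and 16.5 CPM with SCFA (-0.58 ± 0.33, SE, and -0.58 without F3SCFA replicate 2). In these 2 strata each control library was above each SCFA library. Elsewhere the groups overlapped. In M7 CTR had 22.2, 15.9 and 12.6 CPM and SCFA 13.05, 11.2, 9.89, 7.90 and 11.8 CPM (-0.52 ± 0.33, SE), and the difference was -0.28 without M7CTR replicate 1. In F7 CTR had 14.2, 26.5 and 6.32 CPM and SCFA 7.18, 8.49, 7.37 and 8.14 CPM (-0.93 ± 0.35, SE), which was -0.33 without F7CTR replicate 2. One control, F7CTR replicate 3, was thus below every SCFA library of its stratum. In F14 CTR had 21.8, 6.58 and 26.4 CPM and SCFA 10.3, 10.5, 9.07 and 6.06 CPM (-1.16 ± 0.35, SE), which was -0.70 without F14CTR replicate 3. In M3 CTR had 23.8, 15.4, 8.67 and 7.39 CPM and SCFA 7.01, 8.03 and 7.91 CPM (-0.73 ± 0.36, SE). The 2 low M3 controls are those of the second column run, where the means of log2(CPM + 1) differed by only -0.01, and without M3CTR replicate 1 the fitted difference was -0.42.

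*Klf4*, a reprogramming factor that also acts in endothelium, had the lowest level of the 8. In M14 it was 11.8, 12.4 and 7.87 CPM in CTR and 1.27, 4.05 and 2.42 CPM with SCFA (-2.05 ± 0.41, SE), and in M3 it was 5.63, 5.37, 4.48 and 4.53 CPM in CTR and 1.36, 2.76 and 1.78 CPM with SCFA (-1.35 ± 0.40, SE). Groups did not overlap in either, and at M3 *Klf4* was lower with SCFA within each column run (differences of mean log2(CPM + 1) of -1.46 in the first, with 1 SCFA library, and -0.77 in the second, with 2). In F14, CTR had 7.02, 2.49 and 12.3 CPM and SCFA 4.96, 4.33, 3.04 and 2.53 CPM (-0.95 ± 0.38, SE), and the difference was -0.36 without F14CTR replicate 3. In F7, CTR had 4.04, 8.67 and 2.59 CPM and SCFA 2.27, 2.75, 2.68 and 2.34 CPM (-1.04 ± 0.39, SE), and the difference was -0.43 without F7CTR replicate 2. *Klf4* differed least in M7, where CTR had 5.87, 4.18 and 4.26 CPM and SCFA 2.69, 4.56, 4.15, 3.34 and 5.69 CPM (-0.24 ± 0.37, SE, and -0.06 without M7CTR replicate 1). In F3 the difference was -0.55 ± 0.37 (SE), with 4.86 to 6.51 CPM in CTR and 2.41 to 5.34 CPM with SCFA, and it was -0.67 without F3SCFA replicate 2.

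*Ccn2*, the profibrotic relative of *Ccn1*, was lower without overlap in M14, at 41.9, 41.3 and 39.8 CPM in CTR and 18.5, 28.4 and 34.3 CPM with SCFA (-0.60 ± 0.33, SE), and the difference was -0.39 without M14SCFA replicate 1. In M7 it was level, at 32.9, 32.9 and 36.6 CPM in CTR and 37.1, 37.7, 31.4, 27.1 and 32.5 CPM with SCFA (0.01 ± 0.31, SE). The largest single value was 90.0 CPM in F14CTR replicate 3, without which the F14 difference changed from -0.68 ± 0.32 (SE) to -0.06. It was -0.40 without F14SCFA replicate 4. In F7 the difference was -0.69 ± 0.31 (SE), -0.39 without F7CTR replicate 2 and -1.05 without F7CTR replicate 3. In M3 it was -0.32 ± 0.32 (SE), with a range from -0.57 without M3SCFA replicate 2 to -0.02 without M3SCFA replicate 1, and in the second column run the difference of mean log2(CPM + 1) was 0.08. In F3 it was -0.15 ± 0.30 (SE), and -0.24 without F3SCFA replicate 2.

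*Klf10*, the TGF-β-inducible early gene, went the other way in 3 strata. In M7 it was 7.40, 7.57 and 6.02 CPM in CTR and 14.8, 9.97, 15.6, 9.23 and 11.4 CPM with SCFA, without overlap (0.96 ± 0.16, SE). In F7 it was 7.77, 8.15 and 7.11 CPM in CTR and 12.3, 10.1, 11.03 and 8.37 CPM with SCFA, again without overlap (0.54 ± 0.16, SE). In F3, 9.09, 10.2 and 9.67 CPM in CTR overlapped 13.4, 16.1, 14.7, 9.63 and 8.18 CPM with SCFA (0.50 ± 0.15, SE, and 0.40 without F3SCFA replicate 2). The F3SCFA libraries separate by column run, with the 3 above 13 CPM in the first and both lower ones in the second. In M3, M14 and F14 the log2 difference was between -0.28 and -0.02. The 2 M7SCFA libraries with the highest *Klf10*, replicates 1 and 3, had the highest mitochondrial mRNA shares of all libraries (13.8% and 14.8%). In M7CTR these shares were 5.59% to 6.14%. The same 2 libraries had the highest *Klf6* of their group (27.2 and 26.4 CPM), and the part of this share was not tested.

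The remaining factors gave smaller differences. *Klf6*, an injury-response gene, was higher with SCFA without overlap in M7, at 27.2, 19.2, 26.4, 19.7 and 22.2 CPM against 18.9, 17.6 and 16.7 CPM (0.40 ± 0.19, SE). Its highest value, 39.3 CPM, was in F3SCFA replicate 2, and the F3 difference of 0.22 ± 0.19 (SE) was -0.01 without that library. *Klf9*, a glucocorticoid target, did not overlap in F7 (32.2 to 40.0 CPM in CTR, 40.4 to 59.9 CPM with SCFA, 0.23 ± 0.25, SE). *Klf15*, another glucocorticoid target, did not overlap in F14, at 13.2, 9.58 and 11.5 CPM in CTR and 9.40, 9.52, 8.63 and 6.95 CPM with SCFA (-0.53 ± 0.17, SE). Over the 6 strata the fitted log2 difference was between -0.28 and 0.40 for *Klf6*, -0.36 and 0.26 for *Klf9*, and -0.53 and 0.40 for *Klf15*.

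**Figure D2:**
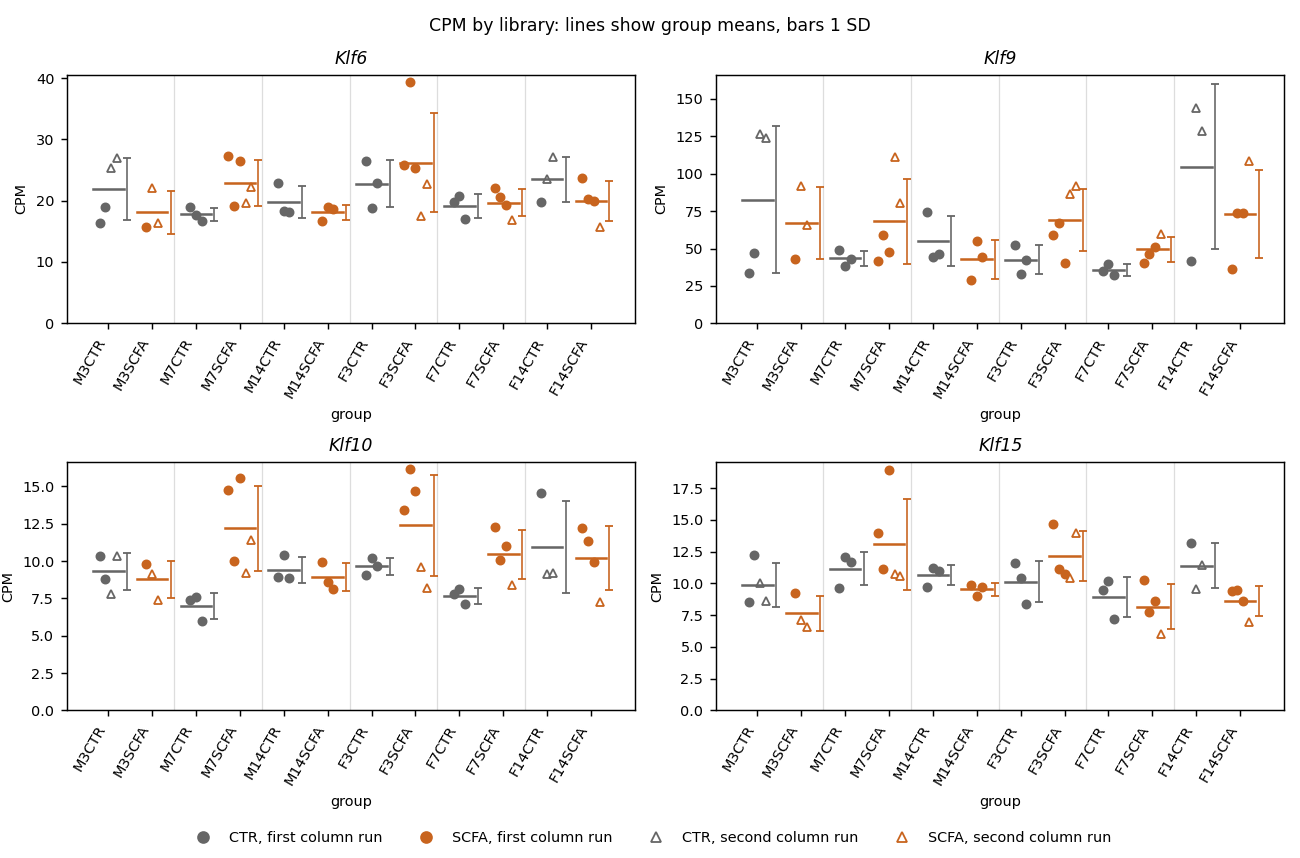
CPM of *Klf6*, *Klf9*, *Klf10* and *Klf15* (vertical axes) in each library of the 12 groups (horizontal axes), drawn as in the plot of *Klf2*, *Klf4*, *Ccn1* and *Ccn2*. The open triangles of *Klf9*, the second column run, lie between 59.9 and 144 CPM, and its filled circles between 29.1 and 74.4 CPM.

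Counted by stratum, the genes that did not overlap were 1 lower in M3 (background over all genes tested 3.79%), 1 lower (8.63%) and 2 higher (9.17%) in M7, 4 lower in M14 (17.8%), 2 lower in F3 (3.91%), 2 higher in F7 (3.92%) and 1 lower in F14 (1.91%). The median fitted log2 difference of the 8 genes was -0.34 in M3, 0.09 in M7, -0.48 in M14, 0.04 in F3, -0.38 in F7 and -0.61 in F14, beside medians of all genes between -0.02 and 0.01. Markers of other cell types moved in some of the same strata. The summed pigment epithelium and melanocyte list (8 genes, all detected) was lower with SCFA without overlap in M7 (144 to 297 CPM against 392 to 523 CPM) and in M14 (102 to 193 CPM against 217 to 399 CPM). In M14 the microglia and macrophage list was also lower (29.1 to 46.5 CPM against 56.7 to 59.6 CPM), as were the mural list (84.7 to 100.5 CPM against 111 to 120 CPM) and the Müller glia list (5663 to 6602 CPM against 6840 to 7198 CPM). The endothelial list was higher with SCFA in M7 (194 to 293 CPM against 170 to 184 CPM) and overlapped in the other 5 strata, and in M7 the mural list (104.3 to 178 CPM) lay just above CTR (98.1 to 104.2 CPM). Abundant genes weigh most in such sums, and the list medians did not always follow them. In M7 the median log2 difference was -0.25 for the mural list, opposite to its sum, and only -0.07 for the pigment epithelium list. In M3 the rod photoreceptor list was higher with SCFA (81869 to 83271 CPM against 64769 to 75033 CPM). No gene of these lists was at 0 in all libraries. Their part in the values of the 8 genes was not tested.

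**Figure D3:**
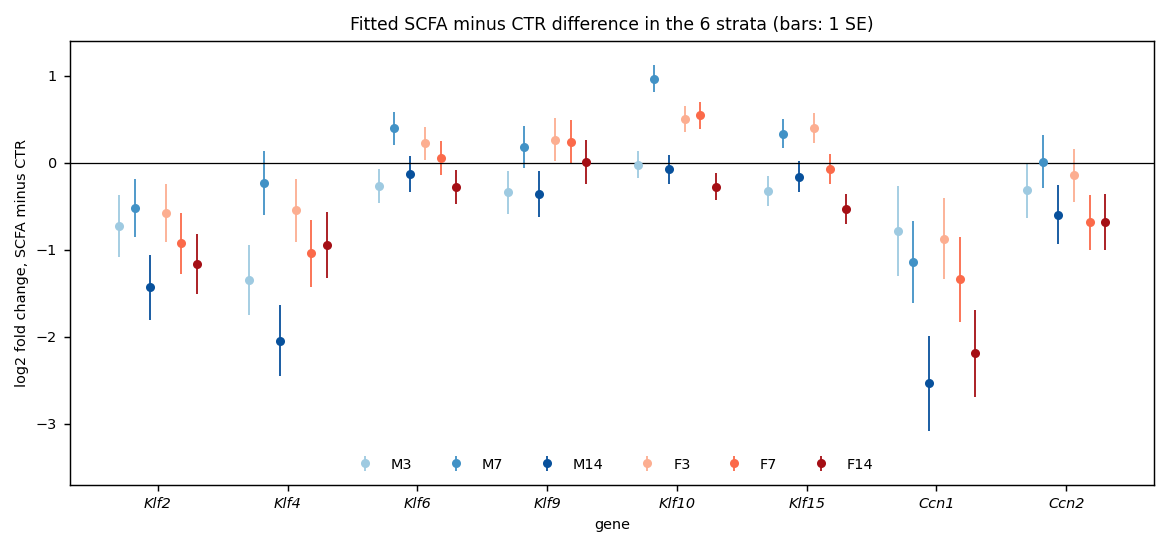
Fitted log2 fold change of SCFA minus CTR (vertical axis, bars 1 SE) for the 8 genes (horizontal axis) in the 6 strata (colours). All points of *Klf2*, *Klf4* and *Ccn1* lie below 0, down to -2.54 for *Ccn1* in M14, and *Klf10* reaches 0.96 in M7.

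Whether the 8 genes changed with time after the laser was tested over both sexes and both treatments. None was called between 7 and 3 dpl by edgeR at an adjusted p under 0.1 (background 0.0055% of genes), with 1 at an unadjusted p under 0.05 (background 6.02%) and 0 called by DESeq2. Between 14 and 7 dpl none was called either (background 0.0604%), with 2 at an unadjusted p under 0.05 (background 10.3%) and 0 called by DESeq2. The nearest were *Klf10*, with a log2 difference of -0.23 ± 0.08 (SE) at 7 against 3 dpl, and *Klf9*, with 0.35 ± 0.13 (SE) at 14 against 7 dpl (edgeR's adjusted p = 0.656 and 0.367). *Ccn1* had a mean of 8.58 CPM at 3 dpl, 8.64 at 7 dpl and 10.96 at 14 dpl over the group means, and its log2 differences of -0.11 ± 0.25 and 0.14 ± 0.25 (SE) were within their errors. *Klf4* went from 4.12 CPM at 7 dpl to 6.06 CPM at 14 dpl (0.39 ± 0.19, SE) and did not pass.

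Between the sexes, *Klf15* alone was called, at 7 dpl. Males had 9.68, 12.1 and 11.7 CPM in CTR and 14.0, 11.1, 18.9, 10.7 and 10.6 CPM with SCFA, and females 9.46, 10.2 and 7.18 CPM in CTR and 10.3, 7.76, 8.59 and 6.03 CPM with SCFA. The ranges of males and females overlap, and males were higher by 0.52 ± 0.12 (SE) on the log2 scale (edgeR's adjusted p = 0.0552, background 0.22% of genes). In the first column run alone the log2 difference was 0.51, and it did not pass (edgeR's adjusted p = 0.248), and the second run holds SCFA libraries only. The call was also lost without any 1 of 8 libraries of the stratum: F7SCFA replicates 2, 3 and 4, M7SCFA replicate 3, F7CTR replicates 1 and 3 and M7CTR replicates 2 and 3, with log2 differences between 0.45 and 0.54. M7SCFA replicate 3, which has the highest *Klf15*, also had the highest Müller glia sum of all libraries (11717 CPM) and the lowest photoreceptor sum. Within groups *Klf15* followed the Müller glia list (r = 0.67, n = 43 libraries, r = 0.79 in the first column run, permutation p adjusted over 120 relations = 0.00288, rho = 0.62, adjusted p = 0.0072, r = 0.61 without the 2 farthest libraries). *Klf15* also followed the clock and glucocorticoid target list (r = 0.53, r = 0.42 in the first column run, adjusted permutation p = 0.00975, rho = 0.54, adjusted p = 0.0123, r = 0.48 without the 2 farthest libraries). The Müller glia list itself had no gene called between the sexes at 7 dpl (median log2 difference 0.14), while all 6 oligodendrocyte markers were higher in males. Their part in the *Klf15* difference was not tested.

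At 3 dpl all 8 genes had lower fitted values in males, by between -0.66 and -0.03, while 49.1% of all genes tested had lower fitted values, and none of the 8 was called (background 0.824%), with 3 at an unadjusted p under 0.05 (background 17.5%) and 0 called by DESeq2. *Klf2* had 7.01 to 23.8 CPM (median 8.03) in 7 male libraries and 9.95 to 21.6 CPM (median 14.9) in 8 female libraries, a log2 difference of -0.57 ± 0.24 (SE, edgeR's adjusted p = 0.23). For *Klf4* the difference was -0.66 ± 0.28 (SE, edgeR's adjusted p = 0.218). For *Klf9* the mean over groups was higher in males (74.8 against 55.8 CPM), and the fitted difference, which takes the column run into account, was -0.03 ± 0.18 (SE). At 14 dpl none was called by edgeR (background 0.126%), with 1 at an unadjusted p under 0.05 (background 12.8%), and DESeq2 called *Klf10* (log2 difference in edgeR -0.39 ± 0.12, SE, adjusted p = 0.159). The change between days was also compared between the sexes. No gene was called by edgeR for 7 against 3 dpl (background 0.033%) or 14 against 7 dpl (background 0%), with 3 genes at an unadjusted p under 0.05 for each (background 11.7% and 7.82%), and DESeq2 called *Klf15* for 7 against 3 dpl. Without F7CTR replicate 2, the library labelled female that holds Y-linked counts, edgeR called 3 such changes over both intervals. The change of *Klf15* from 3 to 7 dpl was higher in males by 0.77 ± 0.17 on the log2 scale (SE, edgeR's adjusted p = 0.122).

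**Figure D4:**
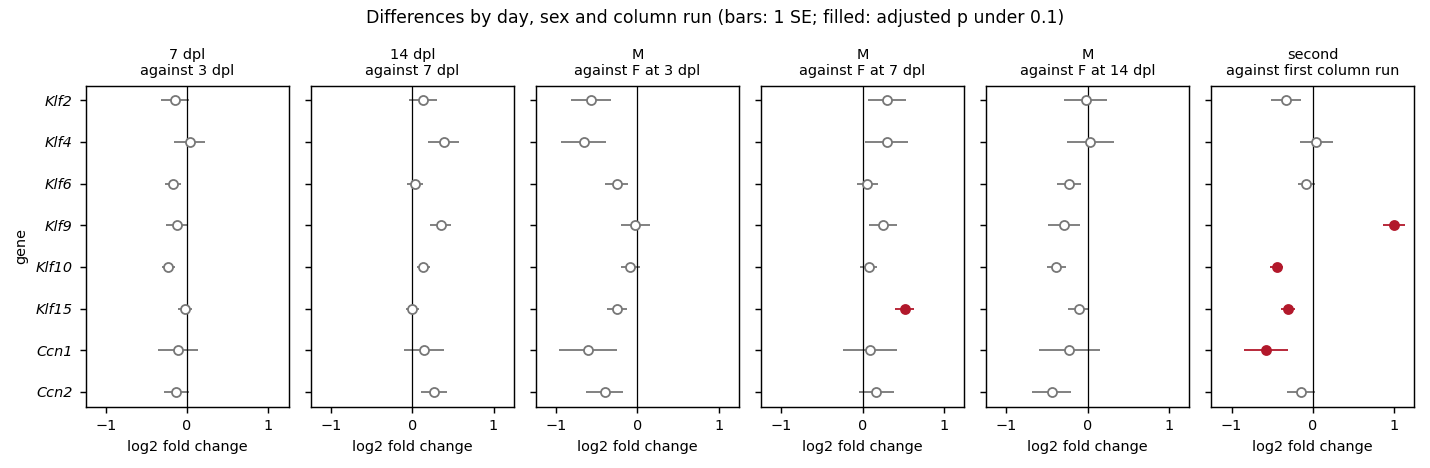
Fitted log2 differences (horizontal axes, bars 1 SE) of the 8 genes (vertical axis) between days, between the sexes at each day and between the column runs. The filled points passed an adjusted p under 0.1: *Klf15* between the sexes at 7 dpl, and *Klf9*, *Klf10*, *Klf15* and *Ccn1* between the column runs.

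The column runs gave the widest difference among these tests, for *Klf9*. It was 59.9 to 144 CPM (median 100.2) in the 12 libraries of the second run and 29.1 to 74.4 CPM (median 44.5) in the 31 of the first, and it was higher without overlap in each of the 7 groups that hold both runs (5 SCFA groups and 2 CTR groups). In M3CTR, for example, the first run had 33.8 and 46.7 CPM and the second 126 and 124 CPM. With the group taken into account *Klf9* was 2.00-fold higher in the second run (log2 difference 0.9995 ± 0.13, SE, edgeR's adjusted p = 2.48e-07). *Klf10* was lower in the second run by -0.45 ± 0.08 (SE, adjusted p = 3.65e-05) and *Klf15* by -0.30 ± 0.09 (SE, adjusted p = 0.00535), each without overlap in 5 of 7 groups. *Ccn1* was lower by -0.57 ± 0.27 (SE, adjusted p = 0.0841), without overlap in 3 groups and with the opposite order in 1. In F14CTR, F14SCFA, F7SCFA and M3SCFA 1 of the runs holds a single library, so the runs separate easily there. The share of all genes without overlap between the runs was not counted. The 4 of 8 calls between the runs stand beside 52% of all genes tested. With an absolute log2 difference over 1 also required, no gene of the 8 passed between the runs (background 4.8%) or between the sexes at 7 dpl (background 0.0989%). The *Ccn1* call was lost in 12 of the 43 fits that leave out 1 library. These were the fits without M3CTR replicate 1 (log2 difference -0.41, adjusted p = 0.21), M3CTR replicates 3 and 4, F14CTR replicate 2, F14SCFA replicates 1 and 4, F3SCFA replicates 1, 2 and 4, M7SCFA replicates 1 and 4 and F7SCFA replicate 4, with log2 differences between -0.57 and -0.41. In the second run the endothelial list was also higher (6 of 8 genes called higher) and the pigment epithelium list lower (5 of 8 called lower), beside 52% of all genes called in either direction. Within groups *Klf9* followed the endothelial list (r = 0.80, n = 43 libraries, 0.62 in the first run, permutation p adjusted over 120 relations = 0.0006, rho = 0.76, adjusted p = 0.0012, r = 0.74 without the 2 farthest libraries). Group means alone were removed here, so r and p over the 43 libraries also hold the run difference of both. The r of the first run was not tested. The part of these cells in the run difference was not tested.

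Next, libraries of the same group were compared with each other. For each of the 28 pairs of genes, deviations of log2(CPM + 1) from the group means were correlated, and p came from 100000 two-sided permutations of libraries within groups. *Klf2*, *Klf4*, *Ccn1* and *Ccn2* went up and down together. *Klf2* and *Ccn1* were closest, with r = 0.91 over 43 libraries (rho = 0.84, adjusted permutation p = 0.00014 for both over 28 pairs, the smallest these permutations could give here), r = 0.86 without the 2 farthest libraries and r = 0.90 in the first column run (adjusted permutation p = 0.0182). In the 12 libraries of the second run r was 0.96, but it did not pass, and groups hold only 1 or 2 libraries there. The pair furthest apart there was F14CTR replicates 2 and 3 (*Klf2* 6.58 and 26.4 CPM, *Ccn1* 3.00 and 27.3 CPM). *Klf2* and *Klf4* had r = 0.75 (rho = 0.73, 0.68 in the first run, adjusted permutation p = 0.031 there), and *Klf4* and *Ccn1* r = 0.74 (rho = 0.67, 0.68 in the first run, adjusted permutation p = 0.0291 there). *Ccn2* followed *Ccn1* (r = 0.70), *Klf2* (r = 0.68) and *Klf4* (r = 0.65) over all libraries with adjusted permutation p between 0.000747 and 0.0225, and in the first run alone, at r between 0.50 and 0.62, these 3 did not pass (adjusted permutation p between 0.127 and 0.331). In all, 11 of 28 pairs passed at an adjusted p under 0.1, and 3 in the first run alone.

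The negative pairs were weaker within the column runs. *Klf9* and *Klf10* had r = -0.66 over 43 libraries (rho = -0.65, adjusted permutation p = 0.00042), -0.47 in the first run (adjusted permutation p = 0.127) and -0.08 in the second. *Klf9* and *Klf15* had -0.41 over all, -0.06 in the first run and 0.17 in the second. With the run removed as well, no negative pair passed and 8 positive ones did. *Klf6* passed with *Klf10* (r = 0.44, rho = 0.36, adjusted permutation p = 0.0778) and with *Ccn2* (r = 0.34, rho = 0.31, adjusted permutation p = 0.0778), and had r = 0.04 to *Klf2* and 0.18 to *Ccn1*. In the first run alone neither of these pairs passed (adjusted permutation p = 0.299 and 0.3).

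**Figure D5:**
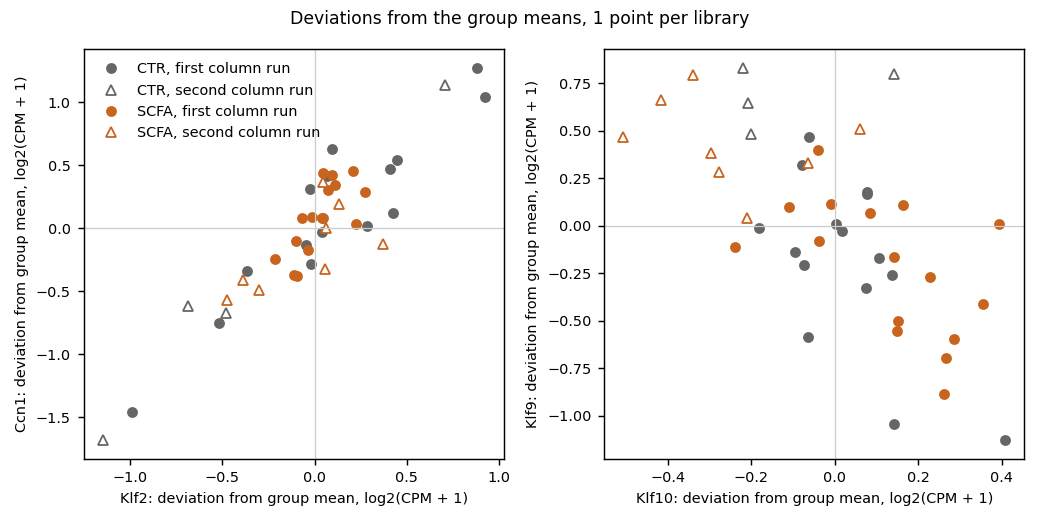
Deviations of log2(CPM + 1) from the group mean, 1 point per library, for *Ccn1* (vertical) against *Klf2* (horizontal) and *Klf9* (vertical) against *Klf10* (horizontal). *Klf2* and *Ccn1* lie along 1 rising band in both column runs (r = 0.91), and all open triangles of *Klf9*, the second run, lie above 0.

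The genes with the most similar pattern within groups, over 43 libraries and the 14812 tested genes that are not members and have no provisional symbol, are given as a description with Pearson's r. *Apold1*, an early-response gene of vascular endothelium, was the closest to *Klf2* (0.88), to *Klf4* (0.73) and to *Ccn1* (0.83). *Atf3*, a stress-induced transcription factor, was second for *Klf2* (0.84) and *Ccn1* (0.78), and the third were *Maff* for *Klf2* (0.80) and *Id1* for *Ccn1* (0.78). The summed endothelial marker list did not pass with *Klf2* (r = -0.21, adjusted permutation p = 0.613 over 120 relations). It did not pass with *Klf4* (r = 0.19, adjusted permutation p = 0.655) or *Ccn1* (r = -0.17, adjusted permutation p = 0.677) either. In the first column run these r were 0.40, 0.62 and 0.32, given without a test. Which cells the shared pattern comes from was not tested. *Nr4a3* (0.83), *Sik1* (0.82) and *Fosl2* (0.79), all rapidly induced genes, were closest to *Ccn2*. *Klf9* was closest to *Glg1* (0.96), *Dusp8* (0.95) and *Sgtb* (0.95), and *Klf10* to *Snapc3* (0.86), *Rab11a* (0.85) and *Commd8* (0.85). *Klf6* and *Klf15* had no gene above 0.81 and 0.76. Over the mean of the 8 genes, *Txnip* (0.83), *Plk2* (0.82) and *Fosl2* (0.81) led.

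Lists of related genes, of which 61 of 65 genes were tested, gave the setting for SCFA against CTR. The lists were chosen with earlier results of these data known, and the p-values do not account for that choice. Immediate early genes were lower with SCFA in 4 strata and higher in none. Of 12 in the list, 6 were called lower in M7 (background 9.1% of all genes called lower), 8 in M14 (3.86%), 5 in F3 (3.33%) and 4 in F7 (0.242%), and the median log2 difference of the list was between -1.06 and -0.63 over the 6 strata. *Egr1*, the zinc-finger early growth response gene, had 24.1 ± 10.8 CPM (SD, n = 5) with SCFA and 127 ± 28.2 CPM (SD, n = 3) in M7CTR, a 5.31-fold difference (edgeR's adjusted p = 0.000326). In F3 it had 31.1 ± 5.02 CPM (SD, n = 5) against 113 ± 20.8 CPM (SD, n = 3) (adjusted p = 0.0177). *Nr4a1*, an orphan nuclear receptor, fell 2.75-fold in M7 (adjusted p = 0.00119) and 2.92-fold in F3 (adjusted p = 0.0101). Without F3SCFA replicate 2 the F3 calls of *Egr1* (3.70-fold, adjusted p = 0.0781), *Nr4a1* (2.80-fold, adjusted p = 0.0628) and *Fosb* (2.33-fold, adjusted p = 0.0696) held, and those of *Fos* and *Junb* did not. The 4 F7 calls had an adjusted p of 0.0924 each and were lost without F7CTR replicate 2 (adjusted p between 0.476 and 0.482, same direction). *Junb* (2.23-fold, adjusted p = 0.00211) fell in M7, and *Atf3* (2.52-fold), *Fosb* (2.31-fold) and *Junb* (2.30-fold) fell in M14, each with an adjusted p of 0.0352. Within groups the summed list followed *Klf2* (r = 0.81, adjusted permutation p = 0.00288 over 120 relations, rho = 0.65, adjusted p = 0.0072) and *Ccn1* (r = 0.80, adjusted permutation p = 0.00975, rho = 0.56, adjusted p = 0.0286), with r = 0.76 and 0.77 in the first column run and r = 0.69 and 0.66 without the 2 farthest libraries.

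Other targets of YAP/TAZ with TEAD, the factors that also drive *Ccn1* and *Ccn2*, were mostly higher with SCFA where they were called. Of 19 tested, 4 were higher in M7 (background 13.1% of all genes called higher), 2 in M14 (3.28%), 6 in F3 (4.78%) and 2 in F7 (0.401%), and *Asap1* was lower in M14 (1.33-fold, adjusted p = 0.0852). *Lats2*, the kinase that restrains YAP, was 38.2 ± 3.42 CPM (SD, n = 5) with SCFA and 26.9 ± 4.49 CPM (SD, n = 3) in M7CTR (1.497-fold, edgeR's adjusted p = 0.00156), and was 1.48-fold higher in M14 (adjusted p = 0.0352) and 1.39-fold in F7 (adjusted p = 0.0966). *Nt5e*, an ectonucleotidase, was 1.54-fold higher in M7 (adjusted p = 0.00598), 1.42-fold in M14 (adjusted p = 0.0922) and 1.54-fold in F7 (adjusted p = 0.0924). *Dock5* at F3, 17.5 ± 29.2 CPM (SD, n = 5) against 3.08 ± 0.129 CPM (SD, n = 3), has its spread in the SCFA group, which holds the library rich in lens transcripts. Without F3SCFA replicate 2 none of the 6 F3 calls held, and *Dock5* was 1.44-fold higher (adjusted p = 0.343). Without F7CTR replicate 2 neither *Lats2* (1.30-fold, adjusted p = 0.479) nor *Nt5e* (1.33-fold, adjusted p = 0.485) passed in F7. The list median was 0.20 in M7 and 0.32 in F3 on the log2 scale and between -0.11 and 0.06 elsewhere. Within groups this list followed *Klf6* (r = 0.75, adjusted permutation p = 0.0012 over 120 relations, rho = 0.71, 0.66 in the first run, 0.64 without the 2 farthest libraries). It did not pass with *Ccn1* (r = -0.24, rho = -0.06, adjusted permutation p = 0.436) or *Ccn2* (r = -0.01, rho = -0.01, adjusted permutation p = 0.94).

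Of 6 endothelial genes that respond to KLF2 or KLF4, 1 was called lower in M14 (background 3.86%), and 2 were called higher in M7 (13.1%) and 2 in F3 (4.78%). The summed list was lower with SCFA without overlap in M7 (279.6 to 502 CPM against 561 to 724 CPM), opposite to the calls and to the list median of 0.15 on the log2 scale there. The sum is dominated by abundant genes: in F3CTR *Ptgds* alone averaged 322 CPM, where the list summed to 323 to 469 CPM. It is therefore not a measure of the list as a whole. *Nos3*, endothelial nitric oxide synthase, fell in M14 (5.10 ± 0.472 CPM with SCFA against 8.87 ± 0.742 CPM, SD, n = 3 each, 1.74-fold, edgeR's adjusted p = 0.0743). *Thbd*, thrombomodulin, was higher in M7 (8.02 ± 3.80 CPM, SD, n = 5, against 4.00 ± 0.858 CPM, SD, n = 3, adjusted p = 0.00465), *Ass1*, an enzyme of arginine synthesis, was higher in M7 (1.37-fold, adjusted p = 0.0787) and F3 (1.53-fold, adjusted p = 0.0465), and *Ptgds*, prostaglandin D synthase, was higher in F3 (571 ± 373 CPM, SD, n = 5, against 322 ± 70.1 CPM, SD, n = 3, 2.20-fold, adjusted p = 0.0685). Without F3SCFA replicate 2 neither *Ass1* (1.31-fold, adjusted p = 0.259) nor *Ptgds* (1.73-fold, adjusted p = 0.29) passed in F3. Of 12 clock and glucocorticoid targets, *Nr1d2* was higher in M7 (1.69-fold, adjusted p = 0.00242) and *Per1* lower in F7 (1.55-fold, adjusted p = 0.0924, and 0.476 without F7CTR replicate 2), and no other was called. In M7 that is 1 of 12 beside 13.1% of all genes called higher. Among 12 other *Klf* and *Ccn* genes, *Klf3* (1.76-fold, adjusted p = 0.0122) and *Klf8* (1.81-fold, adjusted p = 0.099) were higher in M7, 2 of 12 beside the same 13.1%, and *Klf13* was lower in M14 (1.60-fold, adjusted p = 0.0427), 1 of 12 beside 3.86%.

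In M3 and F14 none of the 61 genes was called by edgeR (background 0.022% and 0%), with 13 and 11 at an unadjusted p under 0.05, and DESeq2 called 2 and 0. These backgrounds are for the adjusted p. The share of all genes at the unadjusted threshold was not counted for these strata, so 13 and 11 are not read as an excess. The totals were 15 genes in M7 (22.2%), 13 in M14 (7.13%), 13 in F3 (8.11%) and 7 in F7 (0.643%), and those in M14, F3 and F7 depended on single libraries. In M14 no gene was called without M14SCFA replicate 1, M14SCFA replicate 3, M14CTR replicate 1 or M14CTR replicate 2, and 7 without M14CTR replicate 3. In F3 there were 3 without F3SCFA replicate 2, 8 without F3CTR replicate 2 and 0 without F3CTR replicate 3. In F7, 27 of the 43 fits without 1 library called none, among them those without F7CTR replicate 1 or 2 or F7SCFA replicate 1 or 3, while 2 were called without M7CTR replicate 3, 3 without M14SCFA replicate 1 or 2, and 16 without F7CTR replicate 3. The count stayed at 7 to 9 without F7SCFA replicate 2 or 4, F14SCFA replicate 1, F14CTR replicate 2, F3SCFA replicate 2, M7SCFA replicate 2 or 3, M7CTR replicate 1 or any 1 of the 4 M3CTR libraries. In F14, 5 were called without F14CTR replicate 2.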

How the data were processed

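Retinal RNA of 43 libraries, each a pool of 2 retinas, was sequenced, and the authors deposited raw read counts per Ensembl gene with no normalization. The submitters' processing notes name the genome build mm10 and DESeq2, and the aligner, the counter and the strand setting are not given in the sources used here. Without a known strand setting, reads of overlapping antisense genes cannot be told apart. Groups were read from the library names in the labels, since the treatment field is the same for all samples. All columns were mapped to samples.

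Counts of all libraries entered a single quasi-likelihood fit (edgeR 4.0.16, R 4.3.3), with group and column run as terms, TMM scaling, filterByExpr (18197 genes kept) and Benjamini-Hochberg adjustment over all of them. Genes were called at an adjusted p under 0.1. The column run is where a library stands in the table and was made a term with the data known. Errors of log2 differences were derived from the F statistic. CPM are on TMM-scaled sizes, and correlations used log2(CPM + 1). Pools are separate samples by their labels, and p-values cover the spread between these pools. At these depths 3 counts are 0.139 to 0.202 CPM, and all 8 genes were above that in every library, which covers counting error only. Gene positions come from GENCODE M21 and promoters from RefSeq.

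The 8 genes and the gene lists were chosen with earlier results of these data known. Named genes are the 8, for each list and stratum up to 3 called genes with the smallest adjusted p, and the 3 most similar genes for each. No 2 libraries of a group agreed within sampling noise (lowest chi-square per gene 3.59). The fit was tested on simulated counts: of genes changed 2-fold between 7 and 3 dpl, edgeR recovered 83.6%, and of genes changed 2-fold with SCFA in M7 59.7%, over 17922 genes, with 11.5% and 9.38% of calls false. For DESeq2 1.42.0 the false share was 18.7% and 17.8%. Alternatives were DESeq2, RLE scaling, no filter, at least 10 counts in every library, no run term, a replicate block, the libraries of the supplementary tables, the first column run alone, F7CTR replicate 2 left out, a robust fit, stricter thresholds and each library left out in turn. Python 3.11.15, numpy 2.4.6, pandas 2.3.3, scipy 1.17.1 and matplotlib 3.10.9 were used.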

Additional observations from a re-analysis of the deposited data

Results flagged for a closer look

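*Ccn2* in F7SCFA replicate 1 lay apart from the other libraries of its group: 17.6 CPM, against 24.9 to 25.7 CPM in the other 3, so that the gap was 0.904 of the group's range, above Dixon's critical value for 4 libraries. It was the only 1 of 40 combinations of gene and group with 4 or 5 libraries to do so, and chance sets apart about 1 in 20.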

How the results depend on the processing

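Calls of the 8 genes were few, and several settings moved them. With the replicate block 0 genes were called between the sexes at 7 dpl and 2 between the column runs, and the *Ccn1* run difference turned to 0.0189. All libraries numbered 4 or 5 are in the second run, so the block and the run term cannot be fully told apart. The part of this overlap in the change was not tested. The block changed no other count by over 1.5 times. The replicate numbers do not pair the libraries: 6 of 18 same-numbered CTR and SCFA libraries correlated above 0.1 (mean r 0.06), and 13 of 36 correlated best with their own number. With the libraries of the supplementary tables these counts were 0 and 2, the list genes called were 2 in M3, 2 in M7 and 4 in F7, and 3 day changes differed between the sexes. In the first column run alone 1 gene was called between the sexes at 3 dpl and 0 at 7 dpl, 22 list genes in F3 and 3 correlated pairs. Without the run term there were 2 at 3 dpl and 0 at 7 dpl, and 4 list genes in M14, 5 in F3 and 0 in F7. With no filter on low counts 2 genes were called between 14 and 7 dpl, 4 between the sexes at 3 dpl and 1 at 14 dpl, 7 day changes differed between the sexes, and 8 list genes were called in M3, 13 in F7 and 5 in F14. DESeq2 called 1 gene between the sexes at 14 dpl, 1 day change and 2 list genes in M3. With at least 10 counts in every library 1 day change differed. Without F7CTR replicate 2 there were 3 day changes, with 0 list genes in F7, and the robust fit called 3 there. The *Ccn1* run difference did not pass in the robust fit or with the supplementary libraries. At an adjusted p under 0.05, 0 genes were called between the sexes at 7 dpl and 5 list genes in M14, 8 in F3 and 0 in F7. With an absolute log2 fold change over 1 as well, 0 genes were called between the sexes at 7 dpl and 0 between the runs, and 4 list genes in M7, 7 in M14, 8 in F3 and 4 in F7. Calls over all genes also moved with the setting, for example from 57 to 2333 between the sexes at 3 dpl. A higher count in a setting is therefore not read as a result about the 8 genes or the lists.

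Leaving out 1 library at a time gave 0 to 1 genes between the sexes at 7 dpl, 3 to 5 between the runs, 0 to 3 day changes, 7 to 13 correlated pairs, and list counts of 10 to 18 in M7, 0 to 14 in M14, 0 to 19 in F3, 0 to 16 in F7 and 0 to 5 in F14. The day counts, the counts between the sexes at 3 and 14 dpl and the M3 list count stayed at 0 in all 43. The day by sex alternatives were added after the data were seen. RLE scaling and the pseudocount of 0.1 moved no count by over 1.5 times. The number of the 8 genes with lower fitted values with SCFA in all 6 strata was 3 to 4 when 1 library was left out. Over the 62 values of each gene under the other settings, the sign changed in 0 for *Klf2* and *Klf4*, 1 for *Ccn1* and *Klf10*, 2 for *Ccn2*, *Klf6* and *Klf15*, and 4 for *Klf9*. Calls over all genes moved as well, from 269 to 4488 in M7 (4047 as reported), 205 to 2579 in M14 (1298), 91 to 3260 in F3 (1476), 0 to 804 in F7 (117), 0 to 296 in M3 (4) and 0 to 85 in F14 (0), and from 4960 to 9900 between the runs (9471). Over all genes the range was 0 to 358 between 7 and 3 dpl (1), 0 to 498 between 14 and 7 dpl (11), and 57 to 2333, 23 to 514 and 12 to 553 between the sexes at 3, 7 and 14 dpl (150, 40 and 23). Sampling depth sets no floor for the 8 genes, and the number of pooled libraries per group, 3 to 5, limits the precision.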

Other observations

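The spread between libraries of a group differed by treatment for *Klf2* and *Ccn1*, a pattern seen after the data were examined and given without a test. For *Klf2* the within-group SD of log2(CPM + 1) was 0.69 in the 19 CTR libraries (6.32 to 29.7 CPM) and 0.23 in the 24 SCFA libraries (6.06 to 16.5 CPM), a ratio of 3.05 that 0.055% of the 18197 genes reached. For *Ccn1* it was 0.95 in CTR (2.93 to 29.4 CPM) and 0.36 with SCFA (2.42 to 9.59 CPM), a ratio of 2.65 that 0.192% of genes reached. Over all genes the median ratio was 1.03. In the first column run alone the ratios were 4.21 for *Klf2* and 2.71 for *Ccn1*, while *Klf10*, *Klf9*, *Klf6* and *Klf15* had ratios between 0.63 and 0.98 there. *Ccn2* had 1.33 (16.7% of genes reached it) and *Klf4* 1.08 (32.7%) in that run. Over both runs *Ccn2* had 1.31 (24.8%) and *Klf4* 1.46 (15.8%).

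The low control libraries of *Klf2*, *Klf4* and *Ccn1* were largely the same ones. F7CTR replicate 3 (6.32, 2.59 and 2.93 CPM) and F14CTR replicate 2 (6.58, 2.49 and 3.00 CPM) were the lowest of their groups for all 3 genes. In the 19 CTR libraries *Klf2* and *Ccn1* deviated together with r = 0.95, and in the 24 SCFA libraries with r = 0.69. For *Klf4* and *Ccn1* these values were 0.88 and 0.44, and for *Ccn1* and *Ccn2* 0.77 and 0.67. Libraries within each set share their groups and column runs, and the difference between the sets was not tested.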
